A study of Mus musculus with 10 samples.

Results

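Vitamin A metabolism and retinoic acid signalling were represented by 9 genes, Cyp26b1, Rlbp1, Dhrs3, Aldh1a1, Rarres2, Rdh10, Rara, Rarb and Crabp1, measured by 12 probe sets in single Bergmann glial cells of the mouse cerebellum. Only probe sets with a value in every cell and with exactly 1 annotated gene were used, and the 12 are part of 33964 such probe sets for 17919 genes. All 12 met both conditions. The genes were chosen from their ratios at the 2 ages in an earlier pass over these arrays, so the differences between ages given here describe the members and no test was applied to them.

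Retinol is oxidised to retinaldehyde by retinol dehydrogenases such as Rdh10, and Dhrs3 reduces retinaldehyde back to retinol. Aldh1a enzymes oxidise retinaldehyde irreversibly to retinoic acid, and Cyp26 enzymes hydroxylate retinoic acid and so remove it. Inside the cell, Rlbp1 carries retinaldehyde and retinol and Crabp1 carries retinoic acid, which acts through nuclear receptors of the Rar family paired with Rxr partners. Bergmann glia are unipolar astroglia whose cell bodies lie in the Purkinje cell layer and whose radial fibres span the molecular layer. Granule neurons migrate inward along these fibres during postnatal growth.

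The arrays compared Bergmann glia before and after the main period of cerebellar maturation, with 5 cells at postnatal day 6 (P6) and 5 at P30, each on its own Affymetrix Mouse Genome 430 2.0 array. All cells at both ages came from the mid-sagittal cerebellum of GFAP-GFP mice, a reporter line in which the Gfap promoter drives GFP, and no other genotype or treatment was used. Because that promoter also acts in other astrocytes, cells had been picked by hand for bright GFP and a bushy unipolar shape, and their amplified cDNA had been screened for astroglial transcripts (Gfap, Fabp7, Sept4 and Slc1a3) and against neuronal ones (Nefl and Mtap2). The animal behind each cell is not named, so each age was treated as 1 sample and the SD given below is the spread between single cells, which may be technical. Cells are called by age and by the replicate number in their labels, and a number does not pair a P6 cell with a P30 cell.

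Deposited values are ratios for 1 probe set relative to a common divisor of that probe set. The methods name the median over all samples as that divisor, but the median of all 10 cells lay at 1 (within 0.005) in only 3.38% of the 43608 complete probe sets and in 0 of 12 member probe sets. The median of the P6 cells lay at 1 in 69.8% and in 9 of 12, so a ratio near 1 is read here as a typical P6 value, and the exact divisor is not known. Such ratios can be compared between cells for 1 probe set but say nothing of how strongly one gene was expressed beside another, and a gene with ratios near 1 may have had almost no signal. The lowest possible ratio was 0.01, called the floor here, and it was met by 1.07% of all P6 values and 1.73% of all P30 values. Among the members it was met by 1 of 60 values at P6 and 8 of 60 at P30. Differences below are mean log2 ratios at P6 minus those at P30, and each fold is such a difference taken out of the log scale. Where cells of 1 age sat at the floor, the fold is a lower bound.

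The members parted into 3 groups by age. The ratios of Cyp26b1, Rlbp1 and Dhrs3 were far higher at P6, those of Aldh1a1 and of all 3 Rarres2 probe sets were far higher at P30, and those of Rdh10, Rara, Rarb and Crabp1 differed less than 3-fold. Over 3-fold higher at P6 stood 3 of 12 probe sets (25.0%, against 12.3% of all probe sets), and over 3-fold higher at P30 stood 4 of 12 (33.3%, against 6.91%). All 5 P6 cells lay above all 5 P30 cells in 3 of 12 (1.96% of all probe sets), and all P30 cells lay above all P6 cells in another 3 of 12 (1.21%). With quantile normalization the former count was 2, since Dhrs3 overlapped, and without P6 replicate 3 both counts were 4, with Rarb and 1425091_at of Rarres2 added. The members had been picked for such differences, so these shares are not read against the background. The median log2 difference was -0.17 over the 12 member probe sets and 0.05 over all probe sets.

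**Figure D1:**
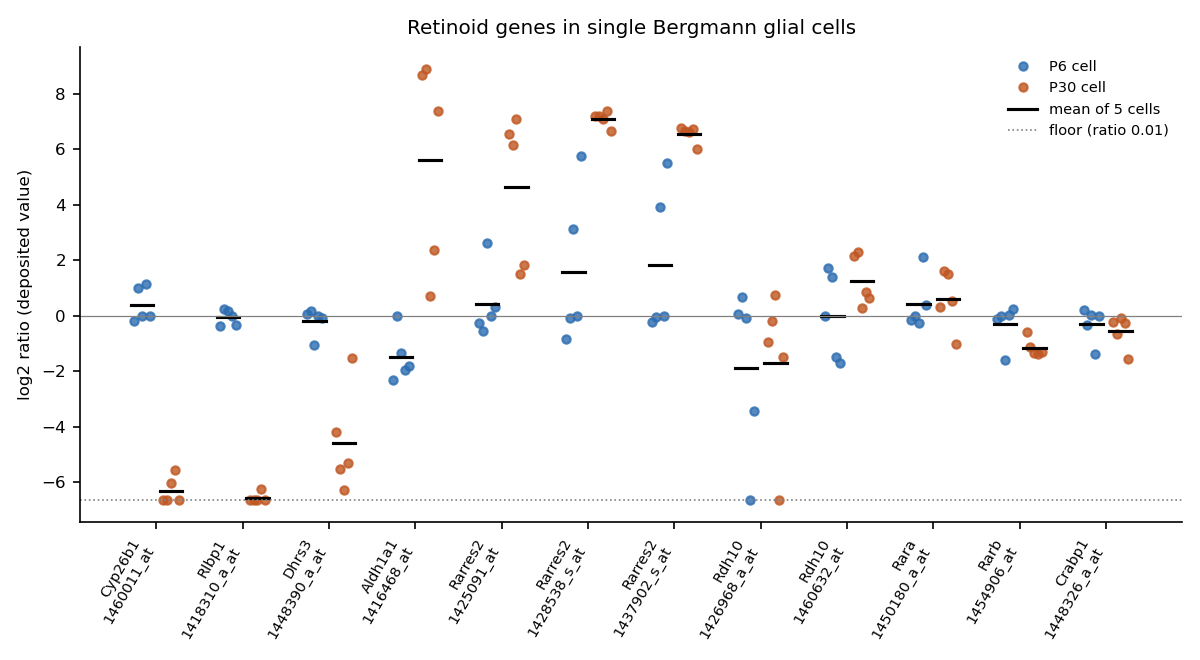
Log2 ratio of each of the 12 probe sets in each of the 10 single cells, with P6 cells in blue and P30 cells in orange. Black bars are means of 5 cells, and the dotted line is the floor at a ratio of 0.01. P30 cells lie at or close to the floor for Cyp26b1 and Rlbp1 and above the P6 mean for Aldh1a1 and Rarres2, while both ages overlap for Rdh10, Rara, Rarb and Crabp1.

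Cyp26b1 clears retinoic acid by hydroxylation. Among the members it had, as a lower bound like that of Rlbp1, the largest difference in favour of P6. Its probe set 1460011_at had ratios of 0.882, 1.98, 0.979, 2.21 and 1.00 in P6 replicates 1 to 5, and of 0.01, 0.01, 0.0154, 0.0209 and 0.01 in P30 replicates 1 to 5. Every P30 cell was thus at or close to the floor, with 3 exactly at it, and the lowest P6 cell lay 42.2-fold above the highest P30 cell. The mean log2 ratio was 0.38 ± 0.63 in the 5 P6 cells and -6.31 ± 0.49 in the P30 cells (SD over cells, here and below), a difference of 6.69 or at least 103-fold.

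Rlbp1, the carrier of retinaldehyde and retinol best known from the retinal pigment epithelium and Müller glia, behaved almost alike. Probe set 1418310_a_at had ratios of 0.774, 1.19, 1.13, 1.00 and 0.795 in the P6 cells, and of 0.01 in every P30 cell except replicate 4, where it was 0.0132. The P6 cells spanned only 1.53-fold, and the lowest of them lay 58.6-fold above the highest P30 cell. The mean log2 ratio was -0.06 ± 0.28 (SD, n = 5) in P6 cells and -6.56 ± 0.18 (SD, n = 5) in P30 cells, a difference of 6.51 or at least 91.0-fold. With 4 of 5 P30 cells at the floor, the small P30 spread is set by the floor and says nothing of how alike the cells were below it.

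Over the 10 cells, Rlbp1 was the gene closest to Cyp26b1 of all other genes with a value, at a root mean square log2 distance of 0.54. Next came Septin9 and Rps28, each at 0.64. The genes nearest to Rlbp1 were Septin9 and Rps28, both at 0.31, and 1700086L19Rik at 0.42. All of these sat near 1 at P6 and near the floor at P30, and any gene of that kind is close by this measure.

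The promoters of Cyp26b1 and Rlbp1, the members with floor values at P30 alone, are shown here. Each is given as the 250 bases before the start of transcription, from RefSeq on GRCm38.p6 and read 5′ to 3′ along the gene. Retinoic acid receptors bind pairs of short core sites. The core AGGTCA was searched for together with its variant AGTTCA, with the related core GGGTCA and with its own variant GGTTCA. Both strands were searched, for single sites and for direct repeats with 1, 2 or 5 bases between. Capitals mark a core site.
Cyp26b1, chr6:84593811-84594060, minus strand: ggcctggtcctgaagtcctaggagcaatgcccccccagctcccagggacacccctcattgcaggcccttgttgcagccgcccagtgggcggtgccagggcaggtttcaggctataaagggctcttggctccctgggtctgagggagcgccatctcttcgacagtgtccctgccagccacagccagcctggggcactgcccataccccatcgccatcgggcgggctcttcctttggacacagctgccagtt
Rlbp1, chr7:79387028-79387277, minus strand: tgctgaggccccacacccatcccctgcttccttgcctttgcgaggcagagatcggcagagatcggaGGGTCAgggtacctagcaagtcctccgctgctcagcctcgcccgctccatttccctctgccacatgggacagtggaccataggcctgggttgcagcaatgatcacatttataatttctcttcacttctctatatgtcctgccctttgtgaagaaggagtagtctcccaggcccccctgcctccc
No core site was in the Cyp26b1 stretch, and the Rlbp1 stretch held GGGTCA once, beginning 184 bases before the start. A core site is common, since 43.7% of 32851 promoter windows of 300 bases (250 before and 50 after the start) held at least 1, and a missing match says only that these letters are not in this stretch.

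Dhrs3, the reductase that turns retinaldehyde back into retinol, was the last of the members over 3-fold higher at P6, with less uniform ratios at P30. Probe set 1448390_a_at had ratios of 1.04, 1.13, 0.476, 1.00 and 0.932 at P6, and of 0.055, 0.0216, 0.0128, 0.0249 and 0.344 at P30. P6 replicate 3 was the lowest cell of its age and P30 replicate 5 the highest of its own, and the gap between those cells was only 1.38-fold. With quantile normalization the ages overlapped. The mean log2 ratio was -0.19 ± 0.50 (SD, n = 5) in P6 cells and -4.57 ± 1.86 (SD, n = 5) in P30 cells, a difference of 4.39 or 20.9-fold. The genes with the nearest profile were Hddc2, Trim32 and Hpf1, at distances of 0.77, 0.81 and 0.82. Each of these had its highest P30 ratio in replicate 5 (0.355, 0.150 and 0.261). They were picked for likeness to Dhrs3 over the same cells, so that shared peak is no separate finding.

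P30 replicate 5 stood apart in markers of other cells. Against the median of the other 4 P30 cells, its 9 endothelial and pericyte markers had a median log2 deviation of 4.49. Of these, 8 were over 3-fold above. Its 4 measured Purkinje neuron markers (of 5 listed) had one of 3.30 and its 5 granule neuron markers one of 2.00. In each of these neuron lists 3 were over 3-fold above, while Car8 (0.409) and Zic1 (0.8945) were not raised. Its 7 general neuron markers had a median deviation of only 0.55, with 2 over 3-fold above. Across the other P30 cells and all P6 cells the median log2 ratio of the endothelial and pericyte list was no higher than 0.22. Without this cell the log2 difference of Dhrs3 was 5.15, larger than with it. Whether the Dhrs3 ratio in this cell and its marker ratios share a source was not tested.

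Aldh1a1, one of the dehydrogenases that form retinoic acid from retinaldehyde, had the largest difference in favour of P30 among the members. Whether it was larger than those of Cyp26b1 and Rlbp1 toward P6 cannot be said, since both of those are lower bounds. Probe set 1416468_at had ratios of 0.198, 1.00, 0.390, 0.254 and 0.283 at P6, and of 407, 479, 1.65, 5.18 and 166 at P30. The P30 cells split widely. Replicates 1, 2 and 5 were above 100, whereas replicate 3 exceeded the highest P6 cell by only 1.65-fold. The mean log2 ratio was -1.50 ± 0.91 (SD, n = 5) in P6 cells and 5.61 ± 3.80 (SD, n = 5) in P30 cells, a difference of -7.11 or 138-fold. The P30 cells spanned 291-fold, and their SD lay at percentile 98.5 of the P30 SDs of all probe sets. The fold depended on which P30 cells were averaged. It was 81.1-fold without P30 replicate 1, 77.9-fold without replicate 2, 322-fold without replicate 3 and 241-fold without replicate 4. Without P30 replicate 5, the cell with the endothelial and pericyte markers, the log2 difference was -6.67.

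The gene nearest to Aldh1a1 over the 10 cells was Maob, which encodes monoamine oxidase B of the outer mitochondrial membrane, at a distance of 1.03. Maob had ratios of 0.241, 0.181, 1.00, 0.399 and 0.324 at P6, and of 312, 261, 0.762, 5.61 and 179 at P30. It was therefore high in the same 3 P30 cells and low in the same 2, with a log2 difference of -6.67. Cyp46a1, the cholesterol 24-hydroxylase, and Dao, the D-amino acid oxidase, followed at 2.02 and 2.11, and both also had their highest P30 ratios in replicates 1, 2 and 5. Likeness over 10 cells is a description, and the points of 1 cell share that cell's amplification.

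Rarres2 encodes chemerin, a secreted chemoattractant and adipokine named for its response to a synthetic retinoid. Probe set 1428538_s_at had ratios of 0.554, 0.945, 8.72, 1.00 and 54.0 at P6, and of 147, 147, 137, 166 and 99.8 at P30. Probe set 1437902_s_at had 0.860, 0.978, 15.1, 1.00 and 45.0 at P6, and 108, 102, 99.3, 105 and 64.7 at P30. In both, the P30 cells were tightly grouped and above every P6 cell, and P6 replicates 3 and 5 were also high, so that the gap between ages was 1.85-fold and 1.44-fold. Mean log2 ratios were 1.59 ± 2.78 (SD, n = 5) for P6 cells and 7.10 ± 0.28 (SD, n = 5) for P30 cells by the former, a difference of -5.51 or 45.7-fold. They were 1.83 ± 2.68 and 6.56 ± 0.31 by the latter, a difference of -4.73 or 26.5-fold.

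The remaining Rarres2 probe set, 1425091_at, had ratios of 0.839, 0.682, 6.19, 1.00 and 1.24 at P6, and of 94.5, 71.7, 136, 2.85 and 3.53 at P30. It lay over 3-fold away from the pair above in 3 of 10 cells, P6 replicate 5 and P30 replicates 4 and 5, and was lower in each of them, up to 58.1-fold below 1428538_s_at in P30 replicate 4. The pair itself stayed within 1.73-fold in 10 of 10 cells, and probe sets ending in _s_at may share probes between transcripts. By 1425091_at the ages overlapped, since P6 replicate 3 exceeded P30 replicates 4 and 5. Its mean log2 ratio was 0.43 ± 1.27 (SD, n = 5) in P6 cells and 4.63 ± 2.73 (SD, n = 5) in P30 cells, a difference of -4.20 or 18.4-fold, which became -3.59 without P30 replicate 3, -4.98 without P30 replicate 4 and -4.90 without P30 replicate 5. All 3 probe sets had raised P6 ratios in replicate 3, while replicate 5 was raised in the _s_at pair alone.

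Markers of other cell types varied between P6 cells, both in cells with raised Rarres2 ratios and in a cell without them. The 7 general neuron markers had a median log2 deviation of 3.61 in P6 replicate 5 and of at most 0.20 in the other P6 cells. In P6 replicate 5, 4 of the 7 were over 3-fold above the other cells. Nefl (0.378), Syt1 (0.770) and Map2 (0.860) were not raised there. The 6 microglia markers had a median deviation of 1.30 in P6 replicate 3, with 2 over 3-fold above. In P6 replicate 2, where Rarres2 was not raised, the 4 measured Purkinje neuron markers had one of 1.90, with 2 over 3-fold above. Without P6 replicate 5 the difference was -6.56 by 1428538_s_at and -5.64 by 1437902_s_at. Without P6 replicate 3 that of 1428538_s_at was -5.90, and without P6 replicate 1 it was -4.90. Oligodendrocyte markers (6 of 7 measured) had a median age difference of -1.32, with 2 over 3-fold at P30. Their median deviation was 1.62 and 1.60 in P30 replicates 4 and 5, the cells with the low 1425091_at ratios. In each of those cells 3 of the 6 were over 3-fold above, while Mog, Mag and Cnp were not. The 7 leptomeningeal markers ranged from -0.64 to 0.40 in cell medians at P6 and from -0.55 to 0.36 at P30. Their part in the Rarres2 ratios was not tested.

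As means of the 3 probe sets, Rarres2 had a log2 difference of -4.81 or 28.1-fold. The nearest gene profiles were those of Lrrc61, Lgi4 and Fah, at distances of 1.52, 1.58 and 1.65. Lgi4, a secreted protein of glia, had ratios of 109 to 241 in all 5 P30 cells and of 6.41 in P6 replicate 5, against 0.578 to 1.16 in the other P6 cells.

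**Figure D2:**
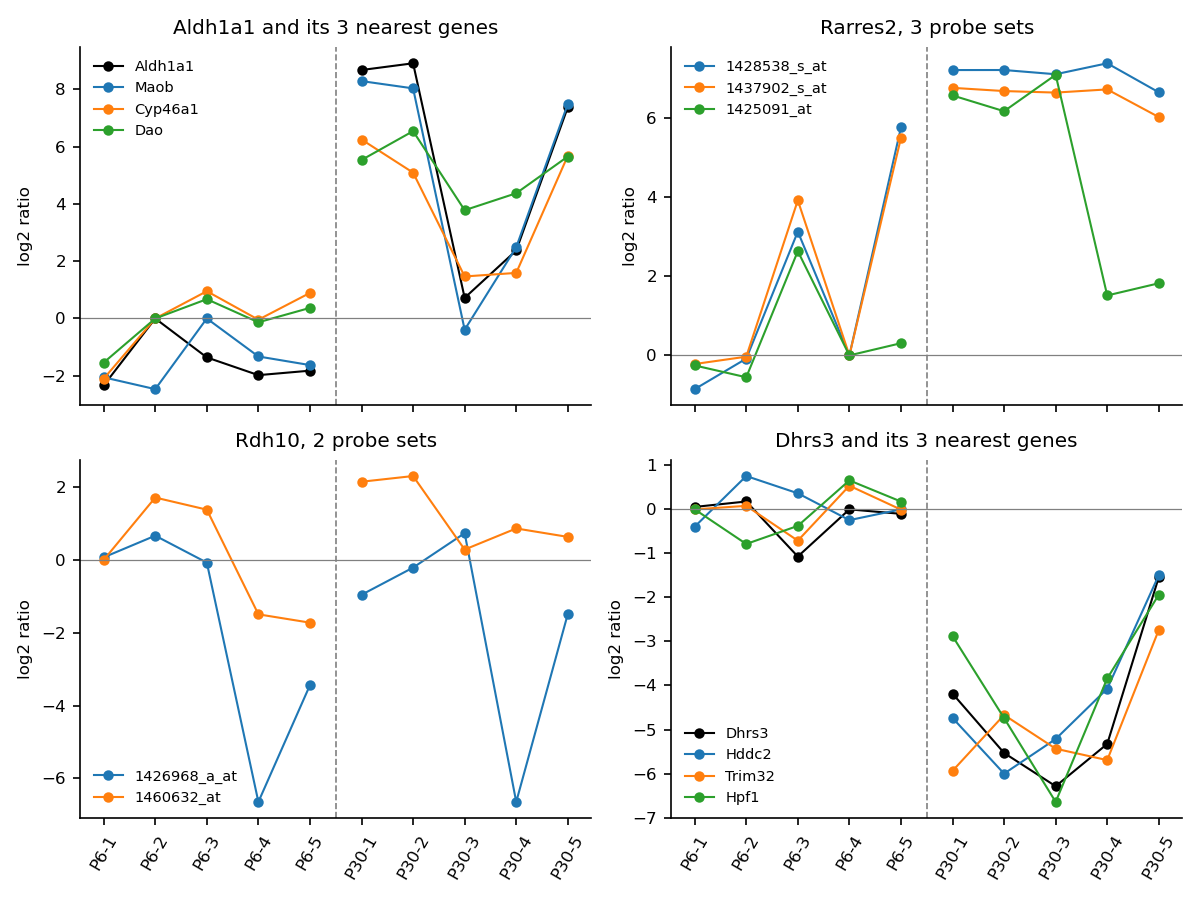
Log2 ratios in the 5 P6 cells (left of the dashed line) and the 5 P30 cells (right) for Aldh1a1 and Dhrs3, each with its 3 nearest genes, and for the probe sets of Rarres2 and Rdh10. Lines only join values of the same gene or probe set, since replicates have no order. Maob follows Aldh1a1 into the low P30 replicates 3 and 4, and 1425091_at of Rarres2 leaves the other probe sets in P6 replicate 5 and P30 replicates 4 and 5.

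Rdh10, which carries out the first oxidation from retinol to retinaldehyde, gave no steady picture by age. Probe set 1460632_at had ratios of 1.00, 3.28, 2.60, 0.355 and 0.303 at P6, and of 4.43, 4.94, 1.22, 1.82 and 1.55 at P30. Its mean log2 ratio was -0.02 ± 1.58 (SD, n = 5) in P6 cells and 1.25 ± 0.92 (SD, n = 5) in P30 cells, a difference of -1.27 or 2.41-fold. It passed 3-fold without P6 replicate 2 (-1.71) or P6 replicate 3 (-1.62), the highest P6 cells. Probe set 1426968_a_at had ratios of 1.05, 1.59, 0.950, 0.01 and 0.0922 at P6, and of 0.515, 0.864, 1.66, 0.01 and 0.357 at P30. Floor values stood at both ages, and its difference of -0.17 was small beside SDs of 3.11 and 2.88, with the opposite sign under 9 of 20 alternatives. In 6 of 10 cells the pair of Rdh10 probe sets lay over 3-fold apart, by at least 182-fold in P30 replicate 4, where 1426968_a_at was at the floor. Within P6 both had their highest cell in replicate 2 and their lowest cells in replicates 4 and 5.

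Among the receptors, Rara showed no clear preference for either age. Probe set 1450180_a_at had ratios of 0.903, 1.00, 0.829, 4.30 and 1.30 at P6, and of 1.25, 3.04, 2.86, 1.45 and 0.494 at P30. The highest cell of all was P6 replicate 4 and the lowest was P30 replicate 5. Mean log2 ratios of 0.41 ± 0.98 at P6 and 0.59 ± 1.07 at P30 differed by -0.18 or 1.13-fold, less than the spread within either age, and the sign changed under 4 of 20 alternatives.

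Rarb, itself a classic target of retinoic acid, was lower in most P30 cells. Probe set 1454906_at had ratios of 0.930, 0.982, 0.327, 1.02 and 1.18 at P6, and of 0.670, 0.453, 0.396, 0.387 and 0.399 at P30. Apart from P6 replicate 3, which was below every P30 cell, all P6 cells lay above all P30 cells. The mean log2 ratio was -0.30 ± 0.75 (SD, n = 5) in P6 cells and -1.15 ± 0.33 (SD, n = 5) in P30 cells, a difference of 0.85 or 1.81-fold, and 1.18 without P6 replicate 3.

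Rarb is the member whose promoter holds a well-known retinoic acid response element, and the same kind of element lies close to the start of Cyp26a1, a relative of Cyp26b1. Both stretches of 250 bases are shown for comparison with those of Cyp26b1 and Rlbp1, from the same RefSeq build. Capitals mark a direct repeat of core sites with 5 bases between, lying along the gene in Rarb and on the opposite strand in Cyp26a1.
Rarb, chr14:16575477-16575726, minus strand: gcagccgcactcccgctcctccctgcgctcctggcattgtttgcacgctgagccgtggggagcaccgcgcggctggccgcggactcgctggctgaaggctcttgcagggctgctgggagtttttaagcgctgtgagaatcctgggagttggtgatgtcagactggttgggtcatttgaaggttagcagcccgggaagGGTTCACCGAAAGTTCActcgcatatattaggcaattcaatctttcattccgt
Cyp26a1, chr19:37697558-37697807, plus strand: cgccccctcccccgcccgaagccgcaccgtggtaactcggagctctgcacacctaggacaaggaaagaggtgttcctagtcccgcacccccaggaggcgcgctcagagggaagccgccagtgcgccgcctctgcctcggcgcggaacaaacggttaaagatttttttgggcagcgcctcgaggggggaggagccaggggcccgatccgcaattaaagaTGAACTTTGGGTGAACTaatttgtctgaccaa
The repeat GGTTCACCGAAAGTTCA begins 53 bases before the start of Rarb, and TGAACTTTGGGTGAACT begins 32 bases before that of Cyp26a1. Such a repeat was in 32 of 32851 windows (0.0974%). Repeats with 1 or 2 bases between were in 0.222% and 0.268% of windows. Among the members and other retinoid genes, only Bco1 held one of these, with 1 base between. Windows were at hand for 7 of 9 members, 13 in all, and 1 of these 13 windows held the repeat with 5 bases between. Counted by gene instead of by window, 1 of 49 other retinoid genes with a window held it. A match describes the sequence and does not show binding in these cells.

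Crabp1, which holds retinoic acid in the cytosol, was close to even. Probe set 1448326_a_at had ratios of 1.16, 0.789, 1.02, 0.382 and 1.00 at P6, and of 0.854, 0.628, 0.944, 0.825 and 0.339 at P30. Each age had a single low cell, P6 replicate 4 and P30 replicate 5, and the rest overlapped. Mean log2 ratios of -0.30 ± 0.64 at P6 and -0.56 ± 0.60 at P30 differed by 0.27 or 1.20-fold, less than the SD of either age. The difference was -0.06, thus of the opposite sign, when both replicates 5 were left out.

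**Figure D3:**
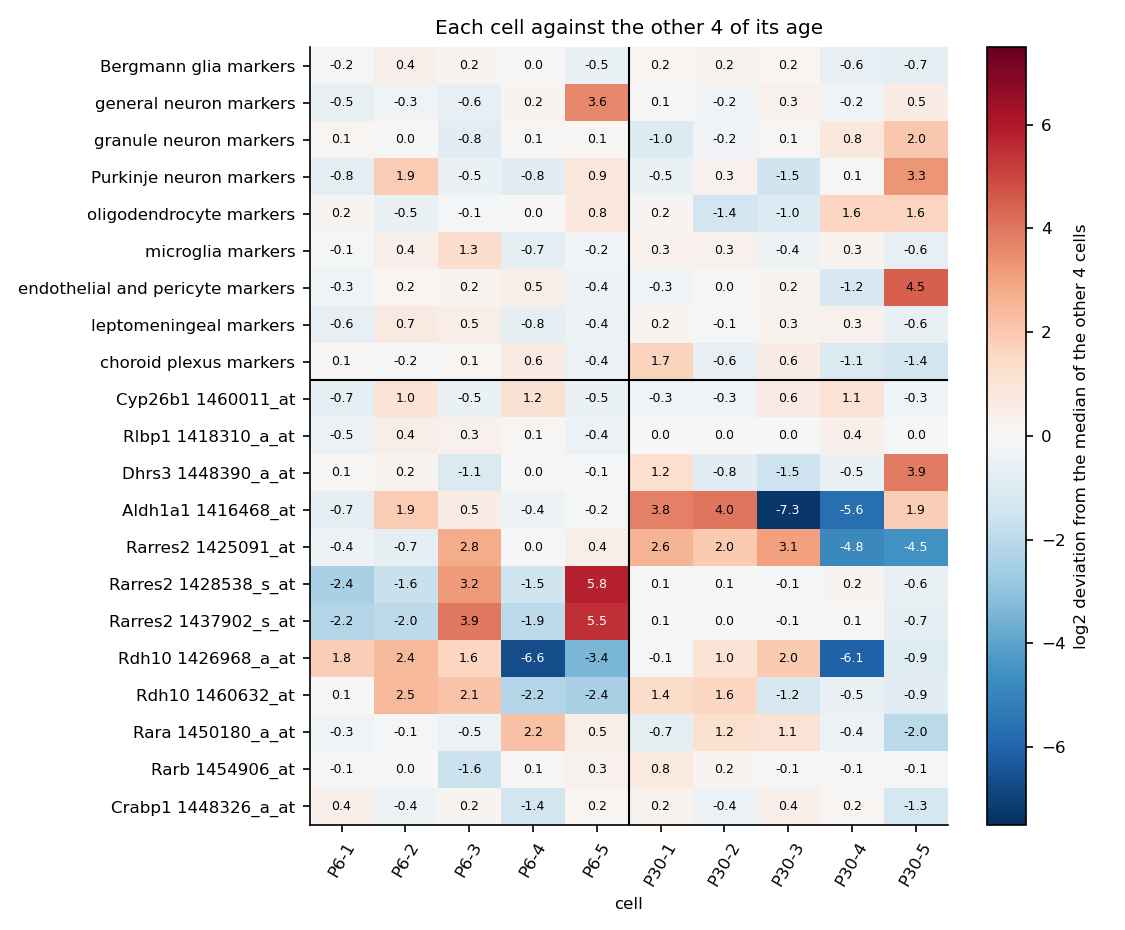
Median log2 deviation of each marker list (upper rows) and log2 deviation of each member probe set (lower rows) in each cell from the other 4 cells of the same age (their median). Red is higher and blue is lower than the other cells, with values printed in the boxes. P6 replicate 5 stands out by the median of general neuron markers (3.61, with 4 of 7 over 3-fold above). It also stands out by the _s_at pair of Rarres2 probe sets, but not by 1425091_at (0.43). P30 replicate 5 stands out by endothelial and pericyte markers (4.49) and Dhrs3.

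The Bergmann glia label was set against 10 markers, all measured, of which 4 had served to pick the cells. None differed over 3-fold between ages, their median difference was -0.18, and cell medians ranged from -0.34 to 0.24 at P6 and from -0.46 to 0.44 at P30. Single markers were less even than the list: Gfap had ratios of 2.14, 0.0232, 0.215, 0.0173 and 0.911 at P6, and of 1.71, 0.131, 1.64, 0.102 and 0.743 at P30. Ratios cannot show whether a marker was present or absent. With both replicates 5 left out, the cells with the most deviant marker lists, the member counts stayed at 3 over 3-fold at P6 and 4 at P30.

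A wider list of 65 retinoid genes placed the members among their pathway, and 56 of them had a usable probe set. Over 3-fold higher at P6 were 6 of 56 (10.7%, against 9.39% of all genes), and over 3-fold higher at P30 was 1 of 56 (1.79%, against 4.93%). The median difference was 0.09 over the 56 and 0.05 over all genes, with 33 higher at P6 and 23 at P30. These counts were 5 and 2 with quantile normalization, and 6 and 0 with scaling to the hybridisation spikes.

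Among other oxidoreductases of retinol and retinaldehyde, 1 of 13 measured genes was over 3-fold at each age, with a median of -0.30. Rdh13, a mitochondrial retinol dehydrogenase, had a log2 difference of 3.36 or at least 10.3-fold, with ratios of 0.06 to 1.95 at P6 and 0.01 to 0.669 at P30. The ages overlapped, since P6 replicate 2 lay among the P30 cells and P30 replicate 1 among the P6 cells. The difference was 4.19 without P6 replicate 2, 4.24 without P30 replicate 1 and 2.72 without P30 replicate 4, the cell at the floor. Rdh5, the 11-cis retinol dehydrogenase of the visual cycle, was 3.57-fold higher at P30 (-1.84), with ratios of 0.159 to 1.66 at P6 and 1.03 to 3.55 at P30. It dropped under 3-fold without P6 replicate 2 (-1.50) or P6 replicate 4 (-1.34), with spike scaling (-1.55) or arithmetic means (-1.44), and to -0.51 with a further probe set that it shares with Bloc1s1.

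The relatives of Aldh1a1 and Cyp26b1 differed far less by age in these cells. None of the 5 measured genes among retinaldehyde dehydrogenases and other retinoic acid hydroxylases passed 3-fold, and their median was 0.16. Cyp26a1 had ratios of 0.593, 1.41, 1.02, 1.00 and 0.207 at P6, and of 0.999, 0.603, 0.931, 0.325 and 0.0644 at P30, and the ages overlapped. Its difference was 0.78 or 1.72-fold, against 6.69 for Cyp26b1. Aldh1a3 differed by -0.72 or 1.65-fold, against -7.11 for Aldh1a1. Aldh1a1 and Cyp26b1 are members, chosen from their ratios at the 2 ages, so the smaller differences of their relatives are not read as a result. The differences between relatives were not tested.

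Among genes of retinoid uptake, storage and transport, 1 of 13 measured was over 3-fold at P6 and none at P30, with a median of 0.14. Stra6, the membrane receptor that takes up retinol from its plasma carrier, had ratios of 1.00, 0.988, 1.32, 0.811 and 32.7 at P6 and of 0.172 to 1.14 at P30. Its difference of 1.78 rested on P6 replicate 5, the cell with 4 of 7 general neuron markers raised, and was 0.78 without it. It was also below 3-fold without P30 replicate 5, at 1.34, and with medians, at 0.41.

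Of 9 other nuclear receptors and coregulators, 2 were over 3-fold at P6 and none at P30, with a median of 0.09. Rxrg, an Rxr partner receptor, had ratios of 0.370, 1.38, 1.18, 1.00 and 0.397 at P6, and of 0.0762, 0.0762, 0.109, 0.380 and 0.01 at P30. Only P30 replicate 4 reached into the P6 range, and the difference was 3.32 or at least 9.98-fold, and 2.59 without P30 replicate 5, the cell at the floor. Rxrb had ratios of 1.00, 0.350, 1.46, 0.01 and 1.53 at P6, and of 0.01, 0.0206, 1.35, 0.0127 and 0.207 at P30. With floor values at both ages and 1 cell against the trend in each, its difference of 2.68 had SDs of 3.05 and 3.06. It was under 3-fold with a pseudocount of 0.1 (1.54) or arithmetic means (1.44), and single cells moved it to 2.03 (without P30 replicate 1), 3.80 (without P30 replicate 3) and 3.99 (without P6 replicate 4).

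The receptors of chemerin, the product of Rarres2, were measured by 3 of 3 genes. Ccrl2, which binds chemerin without signalling, had ratios of 0.955, 1.00, 1.18, 1.21 and 0.590 at P6, and of 1.04, 0.136, 0.0595, 0.0755 and 0.121 at P30. All P30 cells but replicate 1 were thus below the P6 cells, and the difference was 2.67 or 6.37-fold, and 3.37 without P30 replicate 1. Cmklr1, the main signalling receptor, differed by 0.68 or 1.60-fold, with probe sets at -0.73 and 2.09. Gpr1 differed by -1.17 or 2.25-fold in favour of P30, with overlapping ages.

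Genes known to respond to retinoic acid included 1 of 13 measured over 3-fold at P6 and none at P30, with a median of 0.07. Meis1, a homeobox gene, had a difference of 1.80 or 3.49-fold, with all P6 cells (0.713 to 1.04) above all P30 cells (0.0929 to 0.530). Its 3 probe sets disagreed, at 4.17, 1.82 and -0.57. The mean dropped under 3-fold without P30 replicate 2 (1.46) or P30 replicate 4 (1.46), with quantile normalization (1.47), with a floor (1.06) or pseudocount (1.02) of 0.1, with arithmetic means (1.44) and with medians (1.08).

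**Figure D4:**
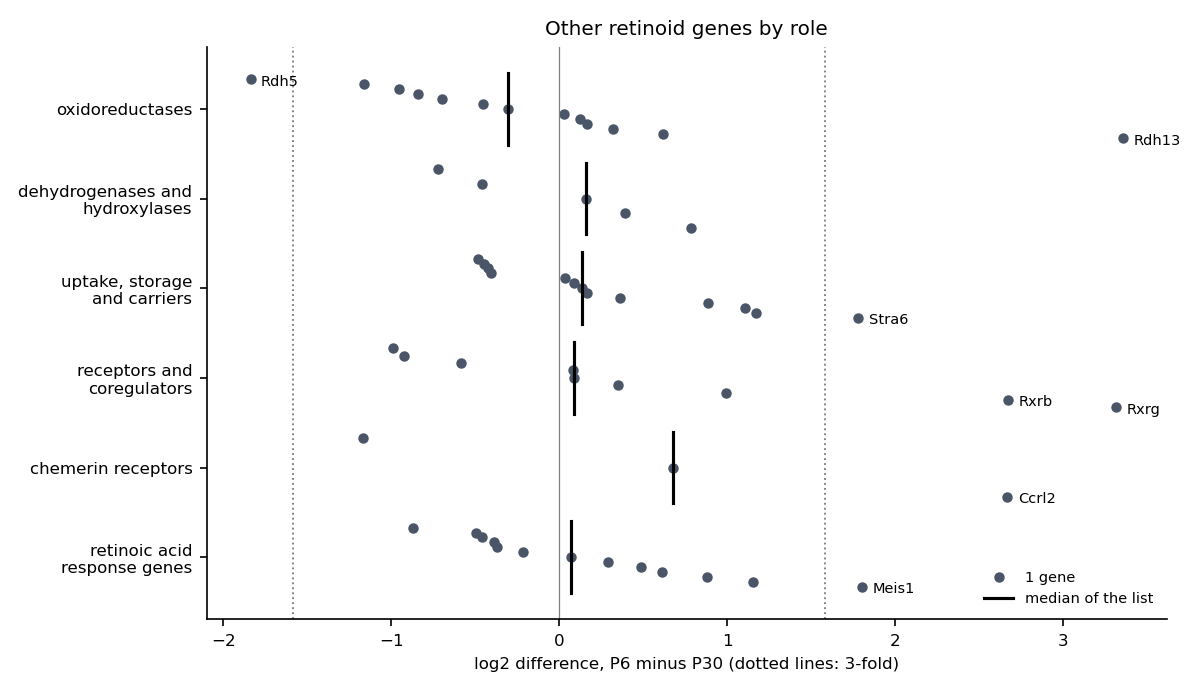
Log2 difference of mean ratios, P6 minus P30, for the 56 measured retinoid genes outside the members, in 6 lists by role. Each point is 1 gene, black bars are list medians, and dotted lines mark 3-fold. Of the 56 genes, 6 lie beyond 3-fold at P6 and 1, Rdh5, beyond it at P30.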

How the data were processed

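Amplified cDNA of 10 single cells was hybridised to 1 array each. The deposited values are linear ratios. The authors processed the arrays with RMA in GeneSpring GX 7.3, set values under 0.01 to 0.01, scaled each array to its 50th percentile and then, as their methods state, took each probe set relative to its median over samples, a divisor that the deposited ratios do not bear out. Cells were lysed singly, and oligo-dT-primed cDNA of restricted length was amplified by PCR, which may bear unequally on probe sets of 1 gene. The genome build is not given in the sources used here.

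Of 45101 probe sets, 1493 with a blank were left out, 10 zeros were set to 0.01, and 932 paired with several genes and 9211 with none were not used. A gene is the mean log2 ratio over its probe sets. No p-value was computed, and the number of arrays limits the precision. Members, lists and tests were chosen with earlier results of these data known. Named are all members, for each member over 3-fold its 3 nearest genes, from each list the genes over 3-fold or else the 1 or 2 with the largest difference, and all chemerin receptors. Marker lists covered Bergmann glia, general, granule and Purkinje neurons, oligodendrocytes, microglia, endothelium and pericytes, leptomeninges and choroid plexus. The latter's 4 markers deviated most in P30 replicate 1, by a median of 1.66. The alternatives were median, quantile and spike scaling, a floor or pseudocount of 0.1, arithmetic means, medians, other probe set filters and each cell left out. Only the age difference and the check for ages lying apart were tested on simulated data, which were normally distributed and had no floor. The steps used Matplotlib 3.10.9, pandas 2.3.3, NumPy 2.4.6 and SciPy 1.17.1 under Python 3.11.15.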

Additional observations from a re-analysis of the deposited data

Results flagged for a closer look

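Single cells lay far from the other 4 of their age in 7 of 24 groups of 5 log2 ratios, by the gap to the nearest cell relative to the range (above 0.71). The cut-off is one that flags about 5.00% of groups of independent, normally distributed values. The 24 groups share the same 10 cells and include several probe sets of 1 gene, so their count is not read against that share. For Rlbp1, P30 replicate 4 at 0.0132 was the only P30 cell off the floor. With the other 4 cells set to 0.01, any such cell meets the criterion, and this one was only 1.32-fold above it, so that group is no measure of an unusual cell. For Dhrs3, P6 replicate 3 at 0.476 was the lowest of its age. For Rarres2, P6 replicate 3 at 6.19 was the highest P6 cell by 1425091_at, and P30 replicate 5 at 64.7 the lowest P30 cell by 1437902_s_at. For Rara, P6 replicate 4 stood highest of its age at 4.30. For Rarb, P6 replicate 3 was lowest at 0.327 and P30 replicate 1 was highest at 0.670.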

How the results depend on the processing

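No paired analysis was possible because the results come from no test and the replicate numbers only name the cells. The number of member probe sets past 3-fold, 3 toward P6 and 4 toward P30, was the same under all 3 scalings, whereas that of P6 cells wholly above fell from 3 to 2 with quantile normalization (Dhrs3) and rose to 4 without P6 replicate 3. Median scaling lowered the median difference of all probe sets by 0.16 and spike scaling raised it to 0.33. Without probe sets ending in _x_at or _s_at, which drops 2 of Rarres2, the count over 3-fold at P30 was 2 and that of P30 cells wholly above was 1. The count of other retinoid genes over 3-fold at P30, 1 as reported, was 2 with quantile normalization (5 at P6), with arithmetic means and with medians, and 0 with spike scaling or with probe sets of several genes. It ranged from 0 to 2 with single cells left out, being 0 without P6 replicate 2 or P6 replicate 4 and 2 without P30 replicate 4. The 6 other retinoid genes over 3-fold at P6 became 5 with quantile normalization, a floor of 0.1, arithmetic means or medians, 4 with the pseudocount, and 5 to 7 with single cells left out. Of 238 single member values, 10 moved by more than the spread between cells, taken as the pooled SD within ages of that probe set. Direction was kept by 224 of the 238. A wide spread makes a move hard to reach, as for Aldh1a1 (2.76) and 1426968_a_at of Rdh10 (3.00). For Rlbp1 the spread was only 0.24, with most P30 cells at the floor. A floor or pseudocount of 0.1 lowered Cyp26b1 to 3.64, Rlbp1 to 3.26 and Dhrs3 to 2.59 at the least, since it caps low ratios. Rarres2 gave -3.42 by 1428538_s_at with arithmetic means and -6.67 by 1437902_s_at with medians, and the cause was not tested. Leaving out both replicates 5 was chosen after seeing the data.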

Other observations

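The genes below were chosen after their values were seen. Rarg, the remaining retinoic acid receptor, was 1.98-fold higher at P30 (-0.99), with every P30 cell above every P6 cell as the mean of its 2 probe sets. Neither probe set parted the ages alone. Probe set 1419415_a_at had a ratio of 17.7 in P30 replicate 5, where 1419416_a_at had 0.510. Rdh12, a retinaldehyde reductase of photoreceptors, was 2.24-fold higher at P30 (-1.16) and apart in the same way, while both of its probe sets overlapped. Ttr, a plasma carrier of thyroid hormone and of the retinol-binding protein, was at 115 in P6 replicate 2 as the mean of 4 probe sets, against 0.468 to 1.18 in the other P6 cells and 0.646 to 1.74 at P30.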
